A study of Homo sapiens with 6 samples.

Results

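The KLF transcription factors described here are 10 genes, KLF2, KLF3, KLF4, KLF5, KLF6, KLF9, KLF10, KLF11, KLF12 and KLF13, out of 12381 genes measured in U251 glioma cells. They were taken as every probe set that the platform annotation assigns to exactly 1 gene symbol, with that symbol among these names, which gave 35 probe sets. The family was chosen by measured values, since KLF2 and KLF6 had already been noted as higher on aligned fibers. A gene was measured when a probe set of it lay above the array's own median on at least 3 of 6 arrays, and is called dim otherwise. All 10 members were measured, by 24 of the 35 probe sets. The differences of the members between substrates are therefore given as a description, with no test.

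U251MG is an established human glioma cell line. Cells were grown for 24 h in medium with 10% serum, without other treatment, on dishes coated with electrospun nanofibers of poly-caprolactone, a degradable polyester. In 3 cultures the fibers were highly aligned, and in 3 cultures they were randomly oriented. Total RNA of each culture was read on 1 Affymetrix HG-U133 Plus 2 array. The labels call the cultures independent, and array spread here includes culture spread. The design has no culture on a flat surface among these arrays, so values on aligned fibers are set only against values on random fibers.

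Krüppel-like factors are transcription factors that share a block of zinc fingers at the end of the protein and bind GC-rich and CACCC-type sequences. They differ in the rest of the protein. KLF2, KLF4, KLF5 and KLF6 mostly activate transcription, KLF3 and KLF12 recruit the corepressor CtBP, and KLF9, KLF10, KLF11 and KLF13 recruit the corepressor Sin3A. Several members are early response genes, whose transcripts appear soon after serum, growth factors, shear stress or transforming growth factor beta reach a cell.

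The promoters of KLF2, KLF4 and KLF6 are shown because these genes had the largest differences between substrates. Each line holds the 250 bases before the RefSeq gene start, 5′ to 3′ on the gene's strand, build GRCh38.p14. Capitals mark GC boxes (GGGCGG on either strand), the type of site that SP and KLF proteins bind, and the MEF2 box.
KLF2, chr19:16324576-16324825, plus strand: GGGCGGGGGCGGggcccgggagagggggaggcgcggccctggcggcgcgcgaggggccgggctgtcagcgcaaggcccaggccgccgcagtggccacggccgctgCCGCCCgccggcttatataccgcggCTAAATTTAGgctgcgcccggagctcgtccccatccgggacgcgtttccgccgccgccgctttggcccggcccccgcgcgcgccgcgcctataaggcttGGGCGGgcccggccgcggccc
KLF4, chr9:107489770-107490019, minus strand: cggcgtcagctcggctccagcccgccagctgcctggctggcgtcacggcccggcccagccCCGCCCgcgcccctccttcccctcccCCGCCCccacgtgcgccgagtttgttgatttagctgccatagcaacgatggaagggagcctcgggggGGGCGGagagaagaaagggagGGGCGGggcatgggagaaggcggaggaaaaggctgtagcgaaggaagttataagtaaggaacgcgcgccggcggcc
KLF6, chr10:3785210-3785459, minus strand: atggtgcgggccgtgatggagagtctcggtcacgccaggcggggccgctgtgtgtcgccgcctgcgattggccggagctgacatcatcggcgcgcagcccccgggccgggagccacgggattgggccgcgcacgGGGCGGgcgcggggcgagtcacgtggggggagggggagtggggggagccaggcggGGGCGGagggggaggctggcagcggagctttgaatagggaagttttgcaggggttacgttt

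The KLF2 window held 4 GC boxes, the KLF4 window 4 and the KLF6 window 2, and 42.6% of all 35116 windows of this length in the RefSeq table held at least 1. In the KLF2 window the MEF2 box CTAAATTTAG lay 120 to 111 bases before the gene start. MEF2 factors bind such boxes and are known to drive KLF2 in endothelial cells under flow. A MEF2 box occurred in 2.80% of all windows, and in 0 of the windows of KLF4 and KLF6. Of the 10 members 8 were in the table, with 13 windows because KLF5, KLF11 and KLF12 have several starts, and KLF3 and KLF10 were not matched. Among the other members a MEF2 box was found in 1 of 4 windows of KLF12. The CACCC box, also bound by KLF proteins, occurred in 54.7% of all windows, TGACGT in 7.10%, TATAAA in 10.7% and the CArG box of serum response factor in 1.16%, each on either strand, and in 0 of the windows of KLF2, KLF4 and KLF6. A match of letters is a description of the sequence, and binding was not measured.

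The array of aligned replicate 3 stood apart from the other 5. Over all genes it differed from the averaged random arrays by a root mean square of 0.38 log2 units, compared with 0.17 for aligned 1 and 0.19 for aligned 2. Its probe sets for 18S ribosomal RNA, a technical readout, averaged 9.78, whereas the other 5 arrays lay between 8.40 and 9.14. Of the glial and glioma markers 8 of 10 were measured, all 8 with a negative difference, and their summed log2 level was 83.1 to 88.5 on aligned and 87.7 to 90.3 on random fibers, lowest in aligned 3. In SOX9 and SOX2, transcription factors of glial and neural stem cells, all aligned arrays lay below all random arrays, as in 9.33% of all genes. The differences were -0.53 ± 0.18 and -0.44 ± 0.18 (SE), and -0.31 and -0.22 without aligned 3. The less bright SOX2 probe sets 213721_at and 213722_at, above the median on all 6 arrays, differed by -0.58 and -0.44, the second with an overlap. S100B, a calcium-binding protein of astrocytes, lay above the median on 2 arrays only, with 4.97, 4.69 and 4.04 on aligned and 5.73, 5.76 and 5.60 on random fibers, so all aligned arrays lay lower. FABP7, a fatty acid-binding protein of radial glia, read 12.36, 11.86 and 10.39 on aligned and 12.50, 12.45 and 12.35 on random fibers, and AQP4 was dim. GFAP, the filament protein of astrocytes, read 5.80, 4.87 and 5.00 on aligned and 6.65, 6.20 and 5.24 on random fibers, near the array medians of 5.63 to 5.66. Of 11 markers of endothelial, immune, epithelial, neuronal, oligodendrocyte and muscle cells 5 passed the filter. Their group means lay between 5.57 and 6.62, against array medians of 5.63 to 5.66. The summed log2 level of these 5 was 30.1 to 30.7 on aligned and 29.6 to 29.9 on random fibers. The part of these shifts in the KLF differences was not tested.

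KLF2, KLF4, KLF6 and KLF10 had the largest positive differences on aligned fibers, and KLF12 had the largest negative one. Values are log2 RMA values, so a difference of 1 means that the signal doubled. In bulk RNA, fewer cells with a transcript and less of it per cell cannot be told apart. Of the 10 members 7 had a positive and 3 a negative difference, KLF9 at -0.0039 among the 3 and at 0.04 with repeated quantile normalization, with a median of 0.12, against a median of 0.01 over all 12381 genes, of which 6502 were positive. In 4 members, KLF2, KLF3, KLF6 and KLF10, all aligned arrays lay above all random arrays, as in 8.71% of all genes, and in KLF12 all lay below, as in 9.33% of all genes. These shares are given as a scale only, since the members were chosen with this contrast known. In the fit over all genes with limma and Benjamini-Hochberg adjustment, 0 genes (0%) reached an adjusted p under 0.05, members included. Before adjustment 1303 genes (10.5%) had a p under 0.05, 4.72% higher and 5.81% lower on aligned fibers. The lowest adjusted p of any gene was 0.463.

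**Figure D1:**
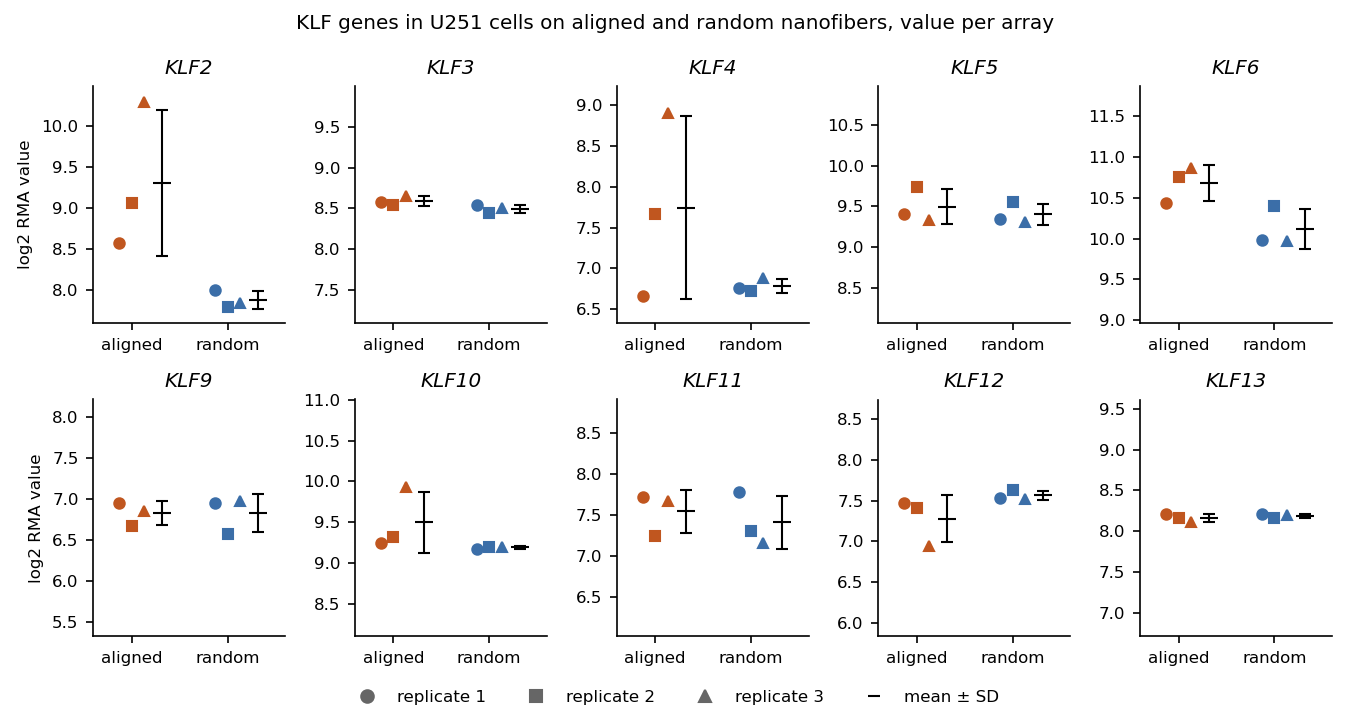
Log2 RMA values of the 10 KLF genes, aligned left of random, with 1 point per array, symbols for the replicate number and bars for mean ± SD (n = 3 per group); every panel spans the same number of log2 units. KLF2 separates the groups by 0.57, and aligned 3 is the highest aligned array in KLF2, KLF4, KLF6 and KLF10 and the lowest in KLF12.

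KLF2, a factor of endothelial quiescence and T cell trafficking that is induced by fluid shear, had the largest difference of the members. It read 8.56, 9.06 and 10.30 on aligned fibers and 7.99, 7.79 and 7.83 on random fibers. The groups did not overlap, and the lowest aligned array lay 0.57 above the highest random array. The random arrays spanned 0.20 log2 units and the aligned arrays 1.73, so the spread within aligned cultures was the wider. Aligned cultures averaged 9.31 ± 0.89 and random cultures 7.87 ± 0.11 (SD, n = 3 each), which gives 1.44 ± 0.39 (SE) on the log2 scale and 2.71-fold. Without aligned 3 the difference was 0.94, and without aligned 1 it was 1.81. Between arrays of the same replicate number it was 0.57, 1.27 and 2.46. These values come from the probe set 219371_s_at. The other KLF2 probe set, 226646_at, lay below the array median on all 6 arrays, with 4.37, 4.60 and 4.51 on aligned and 4.33, 4.55 and 4.28 on random fibers. At that brightness it gave no separation, and the KLF2 result thus rests on 1 probe set.

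KLF4, the close relative of KLF2 that is also known as a reprogramming factor and a regulator of epithelial and vascular cells, varied most among the aligned cultures. It read 6.67, 7.67 and 8.90 on aligned fibers and 6.76, 6.72 and 6.88 on random fibers. Aligned 1 lay below all 3 random arrays, while aligned 2 and 3 lay above them, and the groups overlapped. Aligned cultures averaged 7.74 ± 1.12 and random cultures 6.79 ± 0.09 (SD, n = 3 each). The difference of 0.96 ± 0.48 (SE) became 0.38 without aligned 3 and 1.49 without aligned 1. The second KLF4 probe set, 220266_s_at, read 5.34, 5.73 and 6.46 on aligned and 5.11, 4.74 and 5.38 on random fibers. It was above the array median on 2 arrays only, and its difference was 0.77.

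KLF6, a ubiquitous factor induced by serum and injury and studied as a tumour suppressor in glioma and other cancers, had a smaller but more even difference. It read 10.44, 10.75 and 10.87 on aligned fibers and 9.98, 10.40 and 9.97 on random fibers. The groups did not overlap, with 0.04 between aligned 1 and random 2, the nearest arrays. Aligned cultures averaged 10.69 ± 0.22 and random cultures 10.12 ± 0.24 (SD, n = 3 each), which gives a difference of 0.57 ± 0.15 (SE) and 1.48-fold. With each array left out in turn it stayed between 0.48 and 0.71, and it was 0.48 without aligned 3. Between arrays of the same number it was 0.46, 0.36 and 0.90.

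KLF6 was read by 5 probe sets, all above the array median on all arrays. The 4 brighter ones differed by 0.51 to 0.58, and in each the groups did not overlap. The probe set 208960_s_at, for example, read 8.94, 9.17 and 9.28 on aligned and 8.57, 8.66 and 8.41 on random fibers. The dimmest, 211610_at, read 6.51, 6.61 and 6.75 on aligned and 6.47, 6.68 and 6.35 on random fibers, with an overlap and a difference of 0.12. The probe sets share the same RNA and arrays, so their likeness says nothing of other cultures.

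KLF5, an activator of proliferating epithelium and smooth muscle from the same branch, showed no separation. It read 9.41, 9.74 and 9.33 on aligned fibers and 9.35, 9.55 and 9.31 on random fibers. Replicate 2 was the highest array in both groups. The difference was 0.09 ± 0.12 (SE), and its second probe set differed by 0.04.

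**Figure D2:**
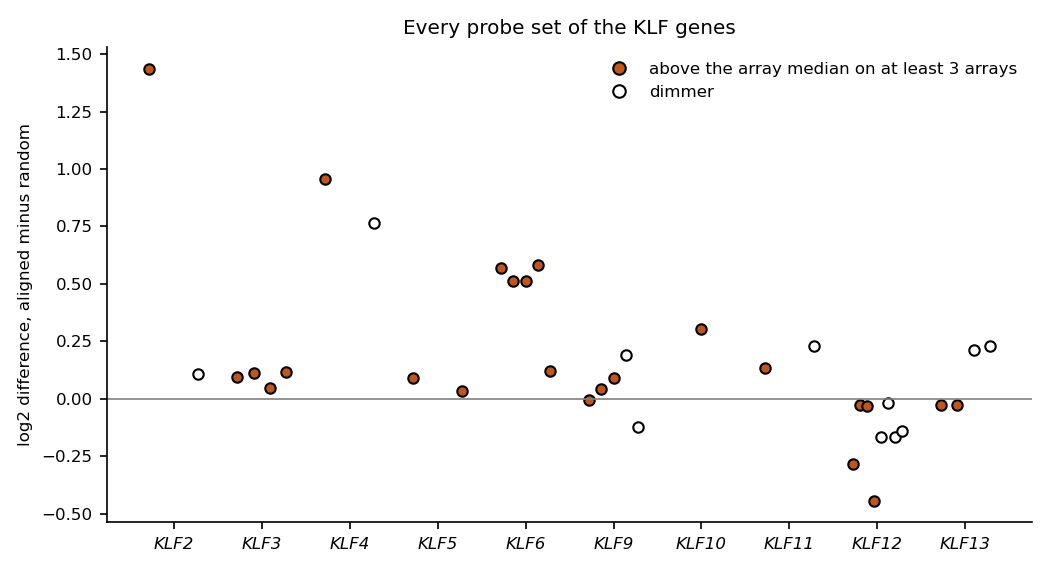
Log2 difference, aligned minus random, of all 35 probe sets by gene; filled points lay above the array median on at least 3 arrays (24 probe sets) and open points were dimmer (11). Of the KLF6 points 4 lie together above 0.5, all KLF12 points lie below 0, and KLF2 has a bright point at 1.44 and a dim one at 0.11.

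KLF12 and KLF3 belong to the branch that represses through CtBP. KLF12, first described as a repressor of the gene for the factor AP-2 alpha, read 7.47, 7.41 and 6.95 on aligned fibers and 7.54, 7.63 and 7.52 on random fibers. Aligned 3 was the lowest array, and the other aligned arrays lay just under the random ones, with a gap of 0.05 between the groups. Aligned cultures averaged 7.28 ± 0.29 and random cultures 7.56 ± 0.06 (SD, n = 3 each). The difference of -0.29 ± 0.14 (SE) was -0.12 without aligned 3, and the groups overlapped after repeated quantile normalization.

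All 8 probe sets of KLF12 had a negative difference, between -0.44 and -0.02, and in 4 of them the groups did not overlap. The largest, 229881_at, read 5.74, 5.85 and 5.20 on aligned and 6.12, 5.97 and 6.03 on random fibers, again with aligned 3 lowest. Of the 8, 4 were dim, and 2 of the brighter ones differed by only -0.03. The 4 with separate groups were 2 of the brighter and 2 of the dim probe sets.

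KLF3, a repressor of adipocyte and blood cell genes, read 8.58, 8.54 and 8.65 on aligned fibers and 8.54, 8.44 and 8.50 on random fibers. Its groups were apart by 0.0023, and the difference was 0.10 ± 0.07 (SE). All 4 KLF3 probe sets were bright, with differences of 0.05 to 0.12, and in 2 of them the groups did not overlap. The KLF3 groups overlapped with arrays centred on their medians and with the mean of all its probe sets.

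Among the members that act through Sin3A, KLF10 alone had groups that did not overlap. KLF10, known as the early gene induced by transforming growth factor beta, read 9.25, 9.32 and 9.93 on aligned fibers and 9.18, 9.20 and 9.20 on random fibers. The random arrays agreed within 0.03, aligned 1 and 2 lay slightly above them, and aligned 3 lay 0.64 above the mean of the other aligned arrays. The difference of 0.31 ± 0.17 (SE) was 0.09 without aligned 3. KLF10 has a single probe set here.

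KLF11, a relative of KLF10 with a part in insulin gene control, read 7.72, 7.25 and 7.68 on aligned fibers and 7.78, 7.30 and 7.15 on random fibers. Here the arrays of replicates 1 and 2 were close between substrates, with differences of -0.06 and -0.06, and replicate 3 differed by 0.52. The overall difference was 0.14 ± 0.19 (SE), which was 0.01 without random 3 and 0.32 without random 1. The dim second probe set, 1553137_s_at, read 4.63, 4.18 and 4.77 on aligned and 4.94, 4.04 and 3.91 on random fibers.

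KLF9, a factor induced by glucocorticoid and thyroid hormone that is known to limit glioblastoma stem cells, read 6.95, 6.67 and 6.86 on aligned fibers and 6.95, 6.57 and 6.97 on random fibers. Its difference was -0.0039 ± 0.13 (SE), and its 5 probe sets ranged from -0.12 to 0.19. KLF13, a regulator of the chemokine gene CCL5 in T cells, read 8.21, 8.16 and 8.11 on aligned fibers and 8.21, 8.16 and 8.20 on random fibers. Its difference was -0.03 ± 0.07 (SE). Its 2 bright probe sets differed by -0.03 each and its 2 dim ones by 0.21 and 0.23, so the sign depended on the probe set.

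**Figure D3:**
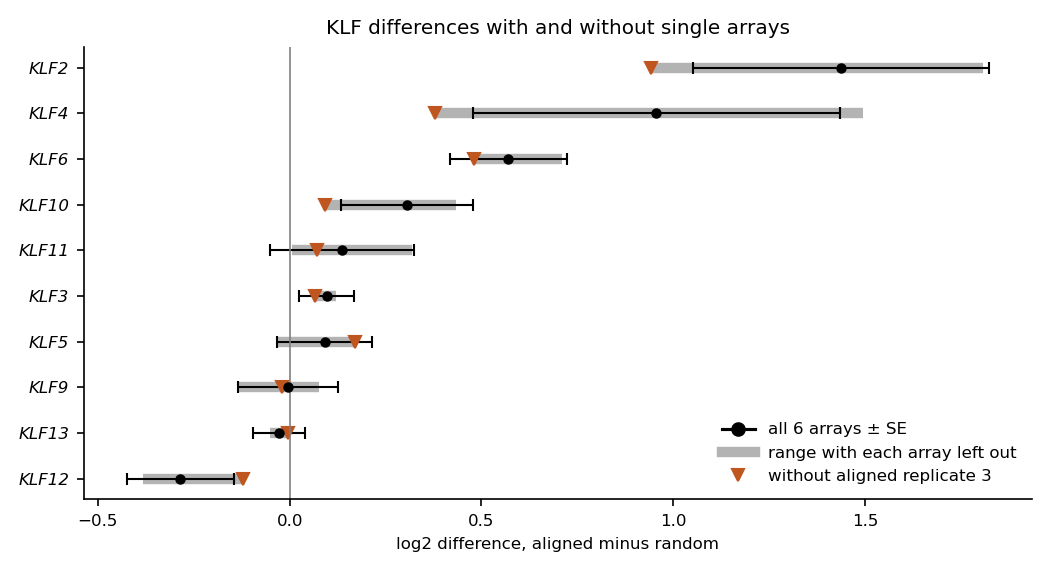
Log2 difference, aligned minus random, of each KLF gene with all 6 arrays (point, ± SE), its range with each array left out in turn (grey bar) and the value without aligned replicate 3 (triangle). KLF2, KLF4, KLF10 and KLF12 lie nearer to 0 without that array, whereas KLF6 is at 0.57 with all arrays and at 0.48 without it.

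The profiles most like those of KLF2 and KLF6 were sought among all genes tested, by the root mean square distance between values centred on each gene's mean over the 6 arrays. The 5 genes nearest to KLF2 were CTH, an enzyme of cysteine synthesis, JDP2, a repressor that binds AP-1 sites, PCK2, the mitochondrial enzyme that makes phosphoenolpyruvate, BEX2 and SPHK1, the kinase that makes sphingosine 1-phosphate. Their distances were 0.18 to 0.20, whereas the KLF2 profile itself had a root mean square spread of 0.89. CTH read 7.71, 8.28 and 9.78 on aligned and 7.64, 6.99 and 7.08 on random fibers, highest in aligned 3 like KLF2. Among the members KLF4 was nearest to KLF2, at a distance of 0.30 and in place 20 of all genes. KLF6 and KLF10 followed at 0.62 and 0.65, in places 229 and 281. Counted from KLF6, whose own spread was 0.34, KLF2 was in place 12009 and KLF4 in place 11891 of all genes.

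The 5 genes nearest to KLF6 were TRIB1, a pseudokinase that binds ubiquitin ligases, MPP3, a scaffold protein, HMOX1, the heme-degrading oxygenase, TNFAIP3, a feedback inhibitor of NF-kB, and E2F7, a repressor of the cell cycle. Their distances were 0.12 to 0.13, with a spread of 0.34 for KLF6 itself. TRIB1 read 8.50, 8.87 and 9.11 on aligned and 8.22, 8.28 and 8.12 on random fibers. E2F7 read 9.76, 9.93 and 10.32 on aligned and 9.44, 9.57 and 9.44 on random fibers. In both genes all aligned arrays lay above all random arrays. Nearness over 6 arrays that share their cultures is a description and carries no test.

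**Figure D4:**
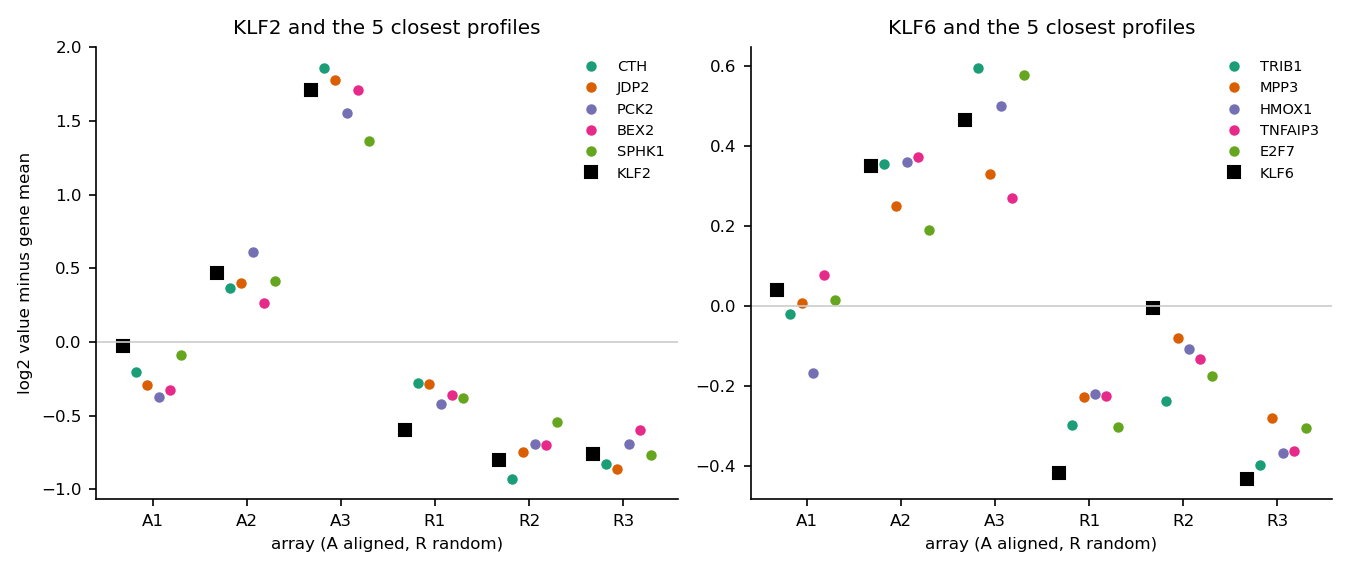
Log2 values minus the gene's mean over 6 arrays for KLF2 (left) and KLF6 (right, black squares) and the 5 genes with the closest profiles (coloured points), with A1 to A3 aligned and R1 to R3 random. The genes near KLF2 are highest in aligned 3, and KLF6 is above its mean in all 3 aligned arrays and TNFAIP3 highest in aligned 2.

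Of the other 8 KLF genes, 7 had a probe set of their own and 3 passed the filter, KLF7, KLF15 and KLF16. Their probe sets lay above the array median on all 6 arrays. KLF16, a relative of KLF9 and KLF13, read 8.44, 8.39 and 8.50 on aligned fibers and 8.18, 8.24 and 8.16 on random fibers, and its groups did not overlap. The difference was 0.25 ± 0.07 (SE), with an adjusted p of 0.463 in limma, and it was 0.22 without aligned 3. KLF7 differed by 0.14 ± 0.10 (0.09 without aligned 3) and KLF15 by 0.07 ± 0.07 (SE), both with an overlap. In the less bright KLF7 probe sets 240432_x_at and 238517_at all aligned arrays lay above all random arrays, with differences of 0.23 and 0.10. Its probe sets 1555420_a_at and 238482_at overlapped, at 0.03 and 0.02. Of the SP factors, which share the zinc fingers and the GC-box site, 6 of 9 were measured, and in limma 0 passed after adjustment, with 0 also at an unadjusted p under 0.05. SP4 and SP3 had the largest SP differences, -0.17 ± 0.09 and -0.15 ± 0.09 (SE).

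The kinase cascade of ERK5 and the MEF2 factors form the known input to KLF2 and KLF4, and 7 of their 8 genes were measured. In limma 0 passed over all genes and 0 had an unadjusted p under 0.05. MAPK7, the ERK5 kinase itself, read 7.85, 7.96 and 7.96 on aligned and 7.91, 7.93 and 8.23 on random fibers. MEF2C, a factor that binds the MEF2 box, read 8.58, 8.60 and 7.87 on aligned and 8.70, 8.74 and 8.79 on random fibers. Its aligned arrays all lay lower, aligned 3 by the most, and the difference of -0.39 ± 0.19 (SE) was -0.15 without aligned 3. MEF2D differed by 0.19 ± 0.09 and MEF2A by 0.09 ± 0.08 (SE), with overlapping groups. The less bright MEF2D probe set 203003_at read 6.09, 6.09 and 6.06 on aligned and 5.83, 5.85 and 5.74 on random fibers, without an overlap. A further one, 203004_s_at, differed by 0.06 with an overlap.

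Partners of the KLF proteins were measured in full, with 10 of 10 corepressors and coactivators. None passed over all genes in limma (0 of 10), and 2 had an unadjusted p under 0.05, both lower on aligned fibers, against 5.81% of all genes in that direction. KAT2B, an acetyltransferase also called PCAF, read 8.05, 8.06 and 7.55 on aligned and 8.16, 8.39 and 8.54 on random fibers. CREBBP, the acetyltransferase CBP, read 8.13, 8.13 and 8.12 on aligned and 8.28, 8.34 and 8.30 on random fibers. Neither gene overlapped between groups, and the differences were -0.48 ± 0.16 and -0.18 ± 0.07 (SE), each with an adjusted p of 0.463. Without aligned 3 they were -0.31 and -0.17. The less bright CREBBP probe sets 228177_at and 211808_s_at, which also passed the filter, overlapped between groups, with differences of -0.12 and 0.10. CTBP1 and CTBP2, the corepressors of KLF3 and KLF12, differed by -0.04 ± 0.07 and 0.02 ± 0.10 (SE), and SIN3A, that of KLF9, KLF10, KLF11 and KLF13, by -0.08 ± 0.08 (SE). Of 7 ubiquitin ligases known to act on KLF proteins, limma called 0 after adjustment and 0 with unadjusted p under 0.05. SIAH1, a ligase of KLF10, had the largest positive difference of these, 0.14 ± 0.08 (SE), and 0.09 without aligned 3. Its aligned arrays all lay above the random arrays, as in 8.71% of all genes. The less bright SIAH1 probe set 202980_s_at, which also passed the filter, overlapped between groups, with a difference of 0.11.

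Genes that KLF2 raises or lowers in endothelial cells were read as well, although that tissue is not the glioma line measured here. These lists were drawn up with the high values of S1PR1, CXCL8 and F3 known, so their counts are no independent evidence. Of 8 genes that KLF2 raises, 4 were measured, while the endothelial genes NOS3, THBD, TEK and NPPC were dim. S1PR1, the lipid receptor that KLF2 controls in T cells, read 6.30, 6.67 and 6.96 on aligned and 5.83, 5.76 and 5.82 on random fibers. ASS1, which makes argininosuccinate, read 7.18, 8.46 and 9.49 on aligned and 7.20, 6.99 and 7.19 on random fibers. Aligned 3 was highest in ASS1, as in KLF4, while aligned 1 lay among the random arrays in ASS1 and below them in KLF4. CDKN1A, the cell cycle inhibitor p21, and PTGDS differed by 0.04 ± 0.12 and 0.04 ± 0.09 (SE), and by -0.08 and -0.01 without aligned 3. In limma 0 of the 4 passed over all genes, and 2, S1PR1 and ASS1, had an unadjusted p under 0.05 and were higher, against 4.72% of all genes in that direction. Their differences of 0.84 ± 0.15 and 1.25 ± 0.50 (SE) were 0.68 and 0.69 without aligned 3, where ASS1 no longer had an unadjusted p under 0.05.

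Of 10 genes that KLF2 lowers in endothelium, 6 were measured and 0 passed over all genes in limma. Of the 6, 2 had an unadjusted p under 0.05, both higher on aligned fibers, against 4.72% of all genes in that direction. F3, the tissue factor that starts coagulation, read 8.20, 8.71 and 8.50 on aligned and 7.81, 8.01 and 7.56 on random fibers. CXCL8, the neutrophil chemokine, read 10.40, 9.30 and 10.70 on aligned and 9.26, 7.98 and 7.69 on random fibers. Both had groups that did not overlap, as in 8.71% of all genes with aligned arrays higher. The F3 and CXCL8 differences were 0.67 ± 0.16 and 1.82 ± 0.48 (SE), and 0.66 and 1.54 without aligned 3. In CXCL8 the nearest arrays, aligned 2 at 9.30 and random 1 at 9.26, were close. CCL2, a monocyte chemokine, read 10.24, 9.04 and 7.26 on aligned and 10.41, 10.13 and 8.41 on random fibers, with a difference of -0.80 ± 0.79 (SE). Without aligned 3 the CCL2 difference was -0.01, and in the limma fit blocked by replicate number its adjusted p was 0.362, with an unadjusted p under 0.05. IL6 differed by 0.42 ± 0.28 (SE), and by 0.23 without aligned 3. Over all 7 lists 7 of 43 measured genes (16.3%) had an unadjusted p under 0.05, against 10.5% of all genes. Without aligned 3 the count was 6 of 43 (14.0%), against 6.58% of all genes. Both counts include S1PR1, CXCL8 and F3, whose high values were known when the lists were drawn up. They are thus no independent evidence, and nothing is read from their distance to the share of all genes.

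**Figure D5:**
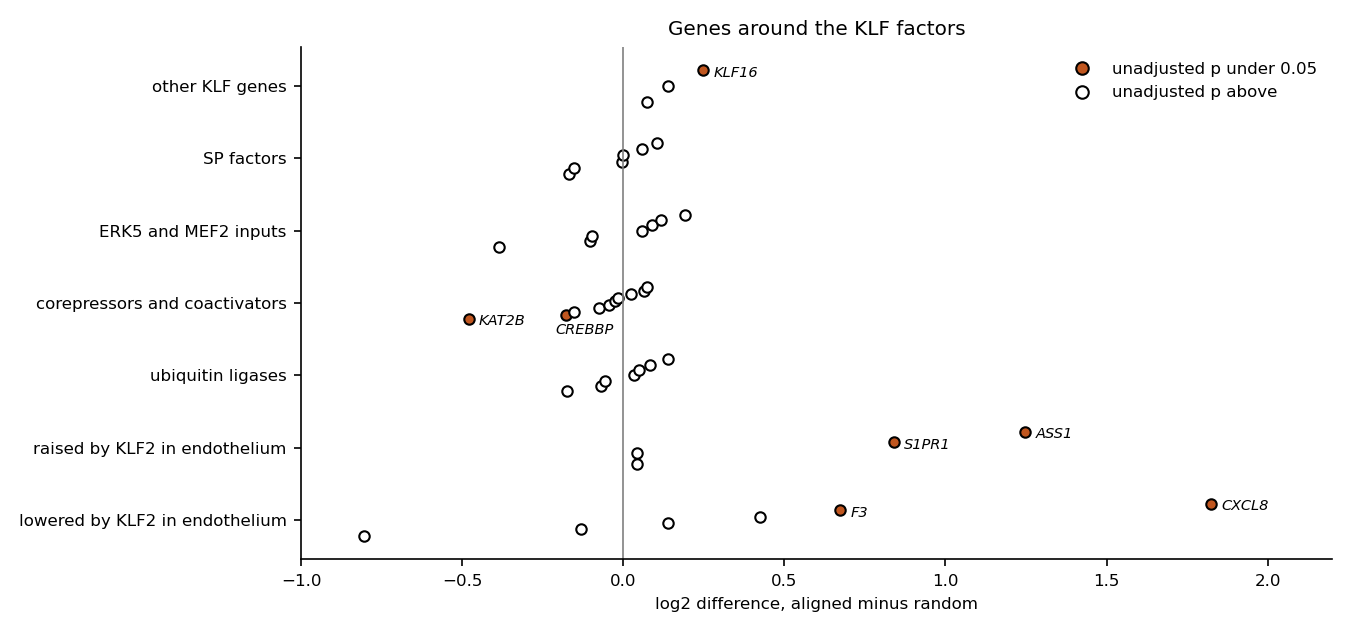
Log2 difference, aligned minus random, of the measured genes in 7 lists around the KLF factors, 1 point per gene; filled points had an unadjusted p under 0.05 in limma and are named, and 0 passed after adjustment over all genes. The SP factors and ubiquitin ligases lie within 0.2 of 0, while S1PR1, ASS1, F3 and CXCL8 lie above 0.6.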

How the data were processed

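RNA of 6 U251 cultures, 3 on aligned and 3 on random nanofibers, was read on Affymetrix HG-U133 Plus 2 arrays. The authors deposited RMA values on the log2 scale, per the submitters' processing notes. This method subtracts background, equalises the distributions of the arrays and combines probes into 1 value per set. Its version is not stated there, and neither scanner output nor detection calls entered the work. Of 54675 probe sets, 62 controls were set aside. Probe sets above the array's own median on at least 3 of 6 arrays were retained, 27621 in all. A gene took the value of its brightest retained probe set among those annotated to 1 gene, giving 12381 genes. All 10 KLF members passed on all 6 arrays, with 24 of 35 probe sets retained, and all 10 matched RefSeq by gene identifier. Aligned minus random was tested two-sided in limma 3.58.1 (lmFit and eBayes, R 4.3.3) with Benjamini-Hochberg adjustment over all genes at 0.05. The median standard error was 0.10, and the number of arrays limits the precision. The code was tested on simulated data. Figures used matplotlib 3.10.9 in Python 3.11.15.

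The members and lists were chosen with earlier results of these data known. The text names every member, the 5 genes nearest to KLF2 and to KLF6, and up to 4 genes with the smallest unadjusted p in each of 7 pathway lists. CTBP1, CTBP2, SIN3A, MAPK7 and the named glial markers were added after their values were seen. A gene is called dim where no probe set was retained.

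Both groups carry replicate numbers 1 to 3, and no label says what they share. Across genes, deviations from group means correlated by 0.369 (arrays numbered 1), 0.322 (numbered 2) and 0.109 (numbered 3), all above the limit of 0.1 used to treat numbers as pairs. Aligned 2 and random 3, with unequal numbers, also correlated by 0.188. The main fit used no block although the limit was passed, so the standard errors given in the Results take no account of pairs. The number as a block was an alternative, beside other filters, normalizations, priors, weights and probe set rules, and each array left out.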

Additional observations from a re-analysis of the deposited data

How the results depend on the processing

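The differences of the KLF members were recomputed under 15 alternatives, which gave 142 values. Several alternatives, such as another prior or the block, leave a difference unchanged by construction. Without aligned 3, KLF2 was at 0.94, KLF4 at 0.38, KLF10 at 0.09 and KLF12 at -0.12. The sign differed in 7 of the 142, which concerned KLF9 in 5, KLF5 without aligned 2 (-0.03) and KLF11 with array weights (-0.11). The count of 0 genes past the adjusted threshold was 2101 with array weights and 0 under the other alternatives. The count of 1303 genes at an unadjusted p under 0.05 was 851 with the filter at the 75th percentile, where 7804 genes were tested, 4326 with array weights, and 624 to 2491 with each array left out. With the replicate block it was 1687, and 0 passed after adjustment. Of the pathway list genes, 8 of 43 had an unadjusted p under 0.05 with the block and 7 without it, the added gene being CCL2. The standard error with the block was 0.36 for KLF2 (0.39 without), 0.07 for KLF5 (0.12 without) and 0.21 for CCL2 (0.79 without). For KAT2B it was 0.18 with the block and 0.16 without. In the main fit 5 members had separate groups, as did 18% of all genes. The count was 3 of 5 measured members when probe sets with shared-sequence suffixes were omitted, where 18.2% of all genes were separate. That setting leaves out KLF2, KLF4 and KLF10 among others. With the filter at the 75th percentile it was 4 of 7 measured members, against 19% of all genes. It was also 4 with arrays centred on their medians, with repeated quantile normalization and with the mean of all retained probe sets (17.6% to 18.6%). With each array left out it was 5 to 6, where 22.9% to 40.2% of all genes were separate. Detection calls were not used here, so how far the dim probe sets lie above background is unknown.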

Other observations

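Transcripts that share a locus with members were read after their values were seen. KLF9-DT, the divergent transcript beside KLF9, read 3.74, 3.75 and 4.02 on aligned and 3.48, 3.58 and 3.50 on random fibers, so all aligned arrays lay above all random ones, while its signal was under the array median on all 6 arrays. KLF9 itself differed by -0.0039. The antisense transcript KLF3-AS1 was dim in both of its probe sets, with differences of -0.22 and 0.05 and overlapping groups.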
